A study of Homo sapiens with 12 samples.

Results

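Peaks of acetylated RNA that were found in control replicates 2 and 3 and in none of the overexpression replicates were examined in HaCaT, an immortalised keratinocyte line of human skin. The members are the peaks of the control replicate 3 list whose interval shared at least 1 base with a peak of control replicate 2 and no base with a peak of overexpression replicates 1, 2 or 3. There were 1144 of them among the 10838 peaks of that list, or 10.6%, among 61804 peaks in all 6 lists. They lay on 1015 genes. Of the same list, 39.2% of peaks (4246) overlapped control replicate 2, and 26.9% of those 4246 were members, while 45.5% of the list overlapped no overexpression peak. The cells carried an empty vector (control) or NAT10 overexpression plasmids, with 3 replicates of each and an immunoprecipitated (IP) and an input library per replicate, which gave 1 peak list per replicate. The labels do not give the plasmid's promoter, the time after its introduction, or whether replicates were separate cultures. The design text asks which genes differ with NAT10.

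N4-acetylcytidine (ac4C) is a cytidine that carries an acetyl group on its base. NAT10 is the enzyme known to place it on ribosomal and transfer RNA, and it has been reported on messenger RNA as well. In the assay, acRIP-seq, RNA fragments are pulled down with an antibody to ac4C and sequenced beside the starting RNA. A peak is a stretch where the pulled-down reads exceed the background, and its fold enrichment is the authors' linear ratio of one to the other.

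The 6 lists differed in length more within the groups than between them. Control replicates 1, 2 and 3 held 4324, 19261 and 10838 peaks, and overexpression replicates 1, 2 and 3 held 12157, 12119 and 3105. Read depth is unknown, and a list names only peaks that passed the caller (score of at least 50, which is a p-value of 1e-05, and fold of at least 2), so a position without a peak is not a position without signal. The authors' false discovery rate, read as percent, was 29.28 or higher for every peak, and 76.31 or higher in control replicate 3, so single peaks are weakly supported by that measure. NAT10 itself had 14, 14 and 15 peaks in overexpression replicates 1, 2 and 3 and 1, 2 and 2 in control replicates 1, 2 and 3. Of 8 keratinocyte markers 7 had a peak in some list, and TP63 was the one that held a member. Markers of immune cells had a peak in some list for 1 of 5 genes, those of fibroblasts for 2 of 6, and those of endothelium and of melanocytes for 3 of 6 each, with 0 to 2 such peaks of each type per list. None of these markers held a member.

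The rule itself used the lists of control replicates 2 and 3 and of the 3 overexpression replicates, so what they show at these positions is a description with no test. Control replicate 1 was the only list that it did not use. Peaks are not replicates of a condition, so no test was run over them.

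Some of the members covered bases at the start of a gene, where RefSeq's sequence of the gene can be shown. Such a peak can also reach to bases before the gene start. Of 969 members on genes with a RefSeq start window, 155 (16%) covered at least 30 of the first 50 bases of the gene, each on a different gene. The same share was 20.9% (522 of 2502) for control replicate 3 peaks shared with control replicate 2 and an overexpression list, called recurring peaks here, and 14.98% over all control replicate 3 peaks. Printed here are 30 bases from 7 of the 10 such members with the highest lower fold of control replicates 2 and 3. Each run is on the transcript strand, 5′ to 3′, from RefSeq (GRCh38.p14), and capitals mark the first match to CNN repeated 4 times, where N is any base, a pattern that has been associated with ac4C. Of the 10 runs, 4 held a match and 6 did not. The 4 with a match come first, and 3 without one follow that lie on genes described further on, while those on CCDC85B, SYDE2 and SAMD15 are not shown.
ITSN2: ggaggCCGCGGCCGCCAtgttgttgtgggg
FAM161A: ggcgatggcCACCTCCCACCGagtggcgaa
DNAJB9: aggtggtggCGCCAGCGGCTAcctcctgcc
UBAP1: tcaacatggCGGCTGCGGCACtggcggtgg
RCOR3: gttgttgtgaggcgactgcgctactgccgg
SAV1: gtggtagcggttattcggcggcccgcggcg
CHAC1: agctggagctaccgagcggtgccaggccag

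The ITSN2 run lies at chr2:24360507-24360536 on the minus strand and the FAM161A run at chr2:61854016-61854045 on the minus strand. The DNAJB9 run is chr7:108569875-108569904 on the plus strand and the UBAP1 run chr9:34179056-34179085 on the plus strand. RCOR3 is shown from chr1:211259366-211259395 (plus), SAV1 from chr14:50668276-50668305 (minus) and CHAC1 from chr15:40953471-40953500 (plus). The pattern was searched in the first 50 bases of the gene. It was found on the transcript strand for 50 of the 155 member genes (32.3%), for 43.9% of 522 recurring-peak genes, for 41.9% of 1327 genes over all control replicate 3 peaks and for 26.03% of all 27305 RefSeq windows. On the opposite strand the shares were 58.7%, 63.98%, 60.8% and 34.7%. Cytidine and guanine together made up a median of 68% of these 50 bases on the member genes, 72% on the recurring-peak genes and 60% over all windows. For the 306 genes under control replicate 3 peaks found in neither control replicate 2 nor an overexpression list, the shares were 41.2% on the transcript strand and 56.2% on the opposite strand. Genes whose start carried a peak thus held the pattern more often than RefSeq windows in general, and the member genes less often than the recurring ones. Both held on either strand, and in every class the opposite strand had the higher share.

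Of the 1144 members, 222 (19.4%) overlapped a peak of control replicate 1, against 27.7% of all 10838 control replicate 3 peaks and 51.5% of the 3102 recurring peaks. With the 3105 highest-scoring peaks of every list, 51.8% of the 164 members overlapped one, against 50.3% of all control replicate 3 peaks so chosen. That choice changed both list length and peak score, which cannot be told apart here. With a fold of at least 4 in every list the shares were 22.3% and 28.6%. With a score of at least 100 they were 16.9% and 23.3%. Of the 3786 control replicate 3 peaks found in neither control replicate 2 nor an overexpression list, 10.1% overlapped a control replicate 1 peak. Control replicate 3 peaks shared with overexpression replicate 1 alone, out of control replicate 2 and the overexpression lists, overlapped control replicate 1 in 158 of 714 cases (22.1%). Those shared with overexpression replicate 2 alone did so in 216 of 930 (23.2%), and those shared with overexpression replicate 3 alone, the shortest list, in 19 of 122 (15.6%). The members' share thus lay between those of peaks shared with a single overexpression list.

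The score is the authors' log-scaled p-value of a peak, higher for a lower p. Within quartiles of the score the members lay below the peaks shared with overexpression replicate 2 alone in every quartile. In the highest the gap was narrow, at 89 of 203 against 85 of 190. The members lay below those shared with overexpression replicate 1 alone in all but the second quartile. In the lowest that gap was narrow, at 30 of 353 against 18 of 203. The differing lengths of the lists were not adjusted for. In the lowest to the highest quartile of the control replicate 3 score, 8.50%, 15.1%, 20.5% and 43.8% of the members overlapped a control replicate 1 peak. For peaks shared with overexpression replicate 1 alone the shares were 8.87%, 14.9%, 29.5% and 45.0%, and for overexpression replicate 2 alone 11.7%, 17.1%, 24.8% and 44.7%. For overexpression replicate 3 alone, with 16 to 47 peaks a quartile, they were 11.4%, 10.6%, 16.7% and 37.5%. By quartile of fold the members had 8.35%, 20.6%, 21.03% and 39.8%, overexpression replicate 1 alone 11.6%, 17.02%, 18.3% and 44.9%, and overexpression replicate 2 alone 15.1%, 17%, 22.7% and 40.2%, so the members were above both in the second quartile and below both in the lowest and highest. By score, recurring peaks lay above all of these, from 17.1% in the lowest to 77.3% in the highest quartile.

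**Figure D1:**
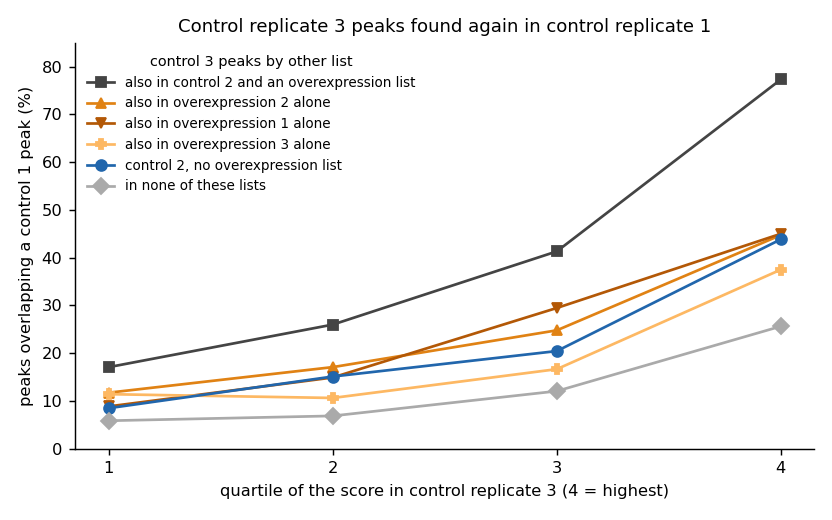
Percent of control replicate 3 peaks that overlap a control replicate 1 peak (y axis), by quartile of their score in control replicate 3 (x axis, 4 the highest), with 1 line for each class of peaks by the other lists they were found in. The members (blue) run from 8.50% to 43.8%, below the recurring peaks (dark grey) and the peaks shared with overexpression replicate 2 alone (orange). They lie below those shared with replicate 1 alone (brown) except in quartile 2, and above those shared with replicate 3 alone (light orange) in quartiles 2 to 4.

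The number of members depended on which lists were read. With overexpression replicate 2 left out of the rule it was 1816, with overexpression replicate 1 left out 1674, and with overexpression replicate 3, the shortest list, left out 1211. With control replicate 1 in place of control replicate 2 it was 603, and with the rule run on control replicates 1 and 2, without replicate 3, it was 391. With the 3105 highest-scoring peaks of every list it was 164, of which 51.8% overlapped a control replicate 1 peak, against 50.3% of all control replicate 3 peaks so chosen and 79.6% of the recurring ones.

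The members were weaker and shorter than the recurring peaks. Their median fold in control replicate 3 was 5.72 (5% to 95% range 3.19 to 12.2), against 7.13 (3.72 to 20.6) for recurring peaks and 6.59 for all peaks of the list. Their median score was 102, against 190 for recurring peaks and 119 for the whole list, and 48.5% of the members had a score under 100, against 25.05% of the recurring peaks. Their median length was 180 bases, against 254 bases for the recurring peaks. By score quartile, members made up 13.0% of the lowest and 7.49% of the highest quartile of control replicate 3. Recurring peaks made up 15.98% and 51.7%. The rule reads these same lists, so the difference describes what the rule selects.

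At the same positions the fold in control replicate 2 had a median of 7.42 (5% to 95% range 3.38 to 25.9). It was higher than in control replicate 3 at 786 members and lower at 357. Pearson's r of the log2 folds was 0.40 across the 1144 members, which share these libraries. At the 222 members with a control replicate 1 peak, the median fold was 6.76, 8.85 and 7.14 in control replicates 1, 2 and 3. The fold was 10 or more in control replicates 2 and 3 together at 71 members. Both ends were the same in control replicates 2 and 3 for 505 members (44.1%), and at least 1 end for 1003 (87.7%). Recurring peaks had both ends in common with control replicate 2 in 53.3% of cases and 1 end or more in 89.4%.

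**Figure D2:**
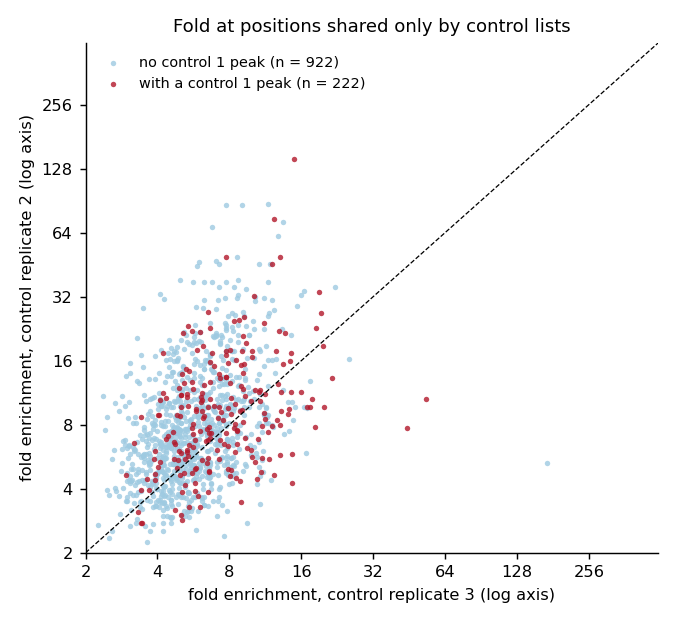
Fold enrichment of the 1144 members in control replicate 3 (x axis) and in control replicate 2 (y axis), both on log axes, with 1 point per member and the diagonal dashed. Points with a control replicate 1 peak (red, n = 222) and without one (blue, n = 922) overlap widely, and 786 points lie above the diagonal.

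Of the members with a control replicate 1 peak, ranked by their lowest fold over the 3 control lists, NOS3, the endothelial nitric oxide synthase, came first, at 151002255 to 151002304 on chromosome 7. Its fold was 17.2, 22.7 and 18.4 in control replicates 1, 2 and 3, and this was the only peak of the gene in each control list, while no overexpression list had a peak on NOS3. The 3 control values were close to each other. BTBD11, a gene of a BTB-domain protein, had 3 neighbouring members between 107318413 and 107320071 on chromosome 12 and no overexpression peak anywhere. The strongest of these had a fold of 18.0, 7.74 and 44.5 in control replicates 1, 2 and 3, so the lists differed more there than on NOS3. The other members on BTBD11 were overlapped by 1 and the same control replicate 2 peak and by 1 and the same control replicate 1 peak, and so are not independent. HELB, a DNA helicase, had folds of 11.03, 11.4 and 15.95 at 66302545 to 66302790 on chromosome 12 and no overexpression peak on the gene.

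Among genes of chromatin and transcription, SETD2, which methylates lysine on histone H3, had folds of 12.5 (control replicate 1), 15.9 (replicate 2) and 14.4 (replicate 3) at 47163455 to 47163576 on chromosome 3. The control values lay close together, and overexpression replicate 1 had 2 peaks elsewhere on SETD2. NAB1, a corepressor of EGR factors, had folds of 24.2, 12.4 and 12.8 at 190649070 to 190649360 on chromosome 2. RCOR3, a corepressor that acts with REST, had 12.2, 32.2 and 10.2 over its gene start on chromosome 1, the region of the run printed above. Its nearest overexpression peak lay 753 bases away, in overexpression replicate 2. HIC2, a transcriptional repressor, had 14.0, 9.74 and 19.8, and its gene carried 3, 2 and 1 peaks elsewhere in overexpression replicates 1, 2 and 3. So a position found only in control lists could lie on a gene with peaks in all 3 overexpression lists.

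Among genes of the cytoskeleton and of membranes, DST encodes dystonin, which ties keratin filaments to hemidesmosomes in basal keratinocytes. At 56843055 to 56843623 on chromosome 6 it had folds of 14.8 (control replicate 1), 45.5 (replicate 2) and 12.03 (replicate 3), the highest in replicate 2. DST had 5, 9 and 0 peaks elsewhere in overexpression replicates 1, 2 and 3. SEPT1, a septin of the filament-forming GTPases, had folds of 13.1, 48.9 and 13.1 at 30379018 to 30379183 on chromosome 16, with an overexpression replicate 1 peak 251 bases away. TMEM120B, a transmembrane protein gene, had folds of 77.9, 11.4 and 13.1, so its value in control replicate 1 stood far above the others. GAREM1, an adaptor of growth factor receptor signalling, had 18.7, 10.6 and 53.2, with the highest value in control replicate 3. SCARA3, a scavenger receptor gene on chromosome 8, had 10.1, 26.8 and 19.3.

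**Figure D3:**
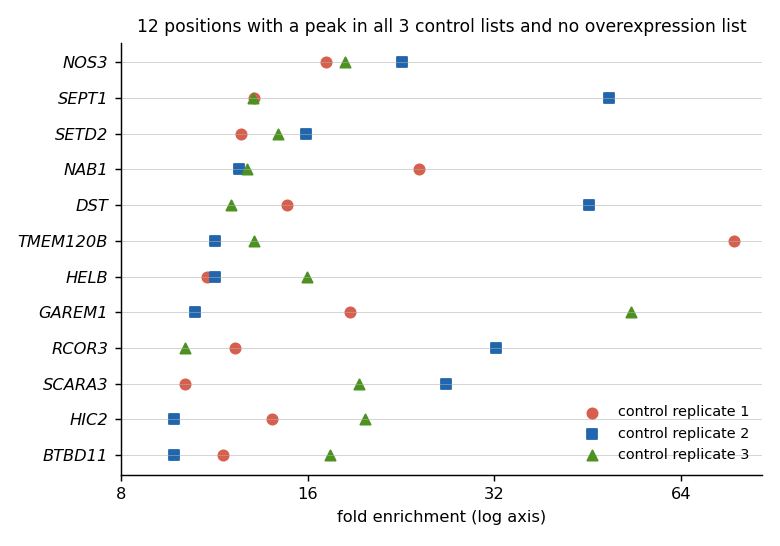
Fold enrichment (x axis, log axis) in control replicates 1 (circles), 2 (squares) and 3 (triangles) at the 12 members with the highest lowest fold over the 3 control lists, 1 per gene. Overexpression lists have no peak at these positions and no point. The 3 control values lie close together for NOS3 and SETD2 and far apart for TMEM120B and GAREM1.

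Of the members without a control replicate 1 peak, those with the highest lower fold of control replicates 2 and 3 follow. ITSN2, a scaffold protein of endocytosis, had a fold of 35.7 in control replicate 2 and 22.2 in control replicate 3 over its gene start, at 24360304 to 24360610 on chromosome 2. ITSN2 carried 2 further members, and 2, 7 and 0 peaks elsewhere in overexpression replicates 1, 2 and 3. FAM161A, a gene of a centrosome and cilium protein, had 34.1 and 16.4 over its gene start, with no overexpression peak on the gene. TOM1, which sorts ubiquitin-tagged cargo on endosomes, had 32.5 and 15.95, and SEPT6, another septin, had 28.9 and 15.4. TSPAN11, a tetraspanin, had 21.1 and 14.5, and TENM3, a teneurin of cell adhesion, had 22.6 and 13.3. In each of these the value in control replicate 2 was above that in control replicate 3. FRS3, an adaptor of fibroblast growth factor receptors, had 16.3 and 25.5, the other way round.

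FRS3 was also 1 of the 3 members nearest to the edge of the rule: a peak of overexpression replicate 1 lay 7 bases from it. PFDN2, a prefoldin subunit gene, had an overexpression replicate 1 peak 5 bases away, and ZSCAN22 an overexpression replicate 3 peak 11 bases away. Just outside the rule, peaks on DCAF11, DST and GPHN shared at most 11, 14 and 16 bases with an overexpression peak, with folds of 6.43, 6.06 and 12.4 in control replicate 3. Such cases were few. Overexpression peaks lay within 100 bases of 11 members and within 1000 bases of 117, and the median distance to the nearest was 10602 bases.

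Most of the genes with a member carried a peak elsewhere in overexpression cells. Of the 1015 genes, 601, 622 and 215 had a peak somewhere in overexpression replicates 1, 2 and 3 (59.2%, 61.3% and 21.2%), and 475 (46.8%) had one in control replicate 1. Over all 4656 genes with a peak in control replicates 2 and 3, these shares were 72.6%, 75.1% and 27.8%, and 50.1% in control replicate 1. All 3 overexpression lists had a peak on 154 of the member genes. No overexpression list had a peak on 248 of them (24.4%), against 11.3% of all genes with a peak in control replicates 2 and 3 and 16.9% of genes with a control replicate 3 peak. The rule asks for a position free of overexpression peaks, so nothing is read from this difference.

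**Figure D4:**
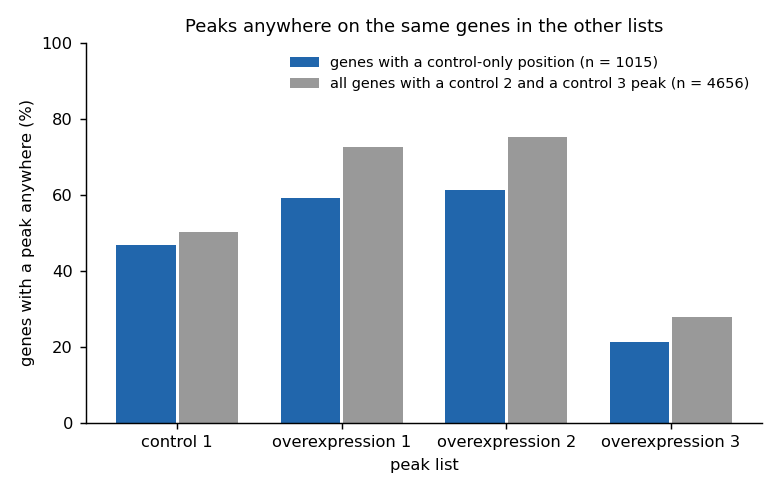
Percent of genes with a peak anywhere on the gene (y axis) in control replicate 1 and overexpression replicates 1, 2 and 3 (x axis), for the 1015 genes with a member (blue) and for all 4656 genes with a peak in control replicates 2 and 3 (grey). The blue bars are lower in each list, at 46.8% against 50.1% in control replicate 1 and 59.2% against 72.6% in overexpression replicate 1.

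On 57 genes a member was found in control replicate 1 too and no overexpression list had any peak. Over all 1456 genes with a control replicate 3 peak that overlapped control replicates 1 and 2, 58 (3.98%) had no overexpression peak, and the 1 gene outside the 57 has its position under an overexpression peak that the lists assign to another gene. The rule itself fixes this count. Besides NOS3, HELB and BTBD11 these included PSMC1, an ATPase of the proteasome's base, with folds of 14.7 (control replicate 1), 15.3 (replicate 2) and 8.99 (replicate 3). SAV1, the Salvador scaffold of the Hippo pathway, had 7.84, 17.7 and 9.96 over its gene start. UBAP1, an endosomal sorting protein, had 15.4, 9.49 and 14.3 over its gene start, and FOSL1, an AP-1 transcription factor subunit, had 6.01, 6.80 and 6.51. SAV1, UBAP1 and FOSL1 were chosen from the 57 after their values were seen. The FOSL1 values differed little between the lists.

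Repeated members on 1 gene were uncommon. There were 900 genes with 1 member, 102 with 2, 12 with 3 and 1 with 4, and 12 pairs of members on a gene lay under 1000 bases apart. Described are the first and, of the genes with 3, those with the highest summed fold in control replicate 3, of which BTBD11 and ITSN2 are given above. SYNE2, which encodes nesprin-2, a giant protein of the nuclear envelope, had 4. Their folds in control replicate 2 were 7.07, 8.84, 6.41 and 8.75 and in control replicate 3 6.42, 4.08, 2.94 and 3.8, in order along chromosome 14. Counted over the whole of SYNE2, control replicate 1 held 4 peaks, control replicate 2 held 23 and control replicate 3 held 8. Overexpression replicates 1, 2 and 3 held 3, 6 and 1, so the control replicate 1 count lay within their range. These counts were not adjusted for the differing lengths of the lists. EPHB2, an ephrin receptor, had 3 members with folds of 8.92, 7.98 and 9.03 in control replicate 2 and 9.19, 12.04 and 11.2 in control replicate 3. RFX1, a transcription factor, had 3 members with folds from 5.16 to 21.8 in control replicate 2 and from 5.03 to 12.6 in control replicate 3, and 2 of them overlapped control replicate 1 peaks. MAGI3, a scaffold at cell junctions, had 3 with folds from 9.78 to 15.97 in control replicate 2 and from 5.83 to 9.32 in control replicate 3. The long genes SYNE2, MAGI3 and EPHB2 each had overexpression peaks at other positions.

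Members ranged from 4 to 2425 bases in length, and 41 were at least 1000 bases long. The longest lay on GPR153, an orphan receptor, with a fold of 7.05 in control replicate 2 and 4.58 in control replicate 3. EHD1, an ATPase of endocytic recycling, had a member of 2405 bases with folds of 13.0 and 9.27. UBALD1 had one of 2325 bases with 3.25 and 5.59, and CCNF, the cyclin F gene, one of 2310 bases with 3.52 and 7.19. None of these 4 overlapped a control replicate 1 peak.

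Along the gene, members lay between the recurring and the unshared peaks. A RefSeq gene span and strand was matched for 969 members, and the centre of 950 lay inside the span. Of these, 30.8% were in the first 20% of the span and 23.8% in the last 20%. Recurring peaks had 39.7% in the first and 19.9% in the last 20%, while control replicate 3 peaks found in neither control replicate 2 nor an overexpression list had 24.9% and 29.4%. Over all control replicate 3 peaks the shares were 31.5% and 24.4%, close to those of the members. Exons and introns were not used here, and spans include introns.

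**Figure D5:**
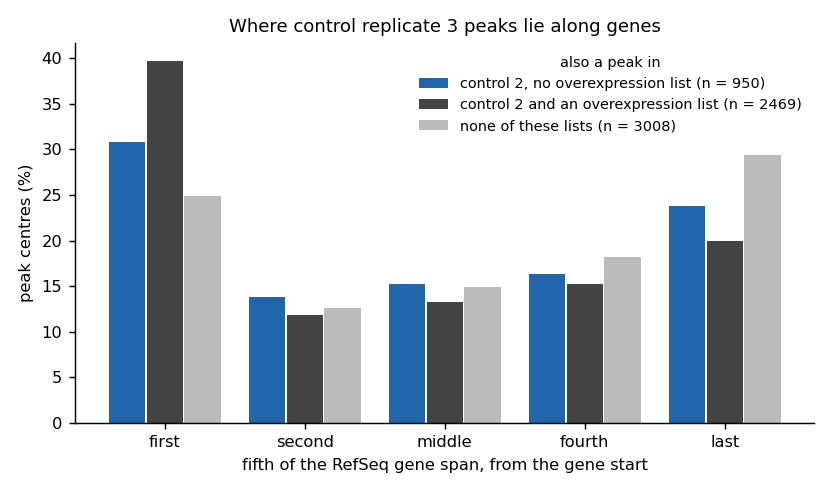
Percent of peak centres (y axis) in each 20% of the RefSeq gene span from the gene start (x axis) for the members (blue), recurring peaks (dark grey) and control replicate 3 peaks found in none of these lists (light grey). The first bin holds 30.8% of the members, 39.7% of the recurring and 24.9% of the unshared peaks.

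Genes of the respiratory chain and ATP synthase held members more often than other genes of the list. Of 21 such genes with a control replicate 3 peak, 11 held a member (52.4%), against 17.0% of all 5956 genes with a control replicate 3 peak. No overexpression list had a peak on 9 of the 11, against 248 of all 1015 member genes (24.4%). Absence from these lists is part of the rule, and the number of peaks per gene was not adjusted for, so nothing is read from this difference. Earlier results of these data, in which this group leaned to the control lists, were known when the list was chosen, so it is not independent support. UQCRH, the hinge protein of complex III, had folds of 4.66 (control replicate 1), 3.69 (replicate 2) and 5.90 (replicate 3) and no other peak. NDUFA8, a subunit of complex I named after its values were seen, had 4.25, 4.42 and 3.92. NDUFS6, another subunit of that complex, had 3.14 in control replicate 2 and 5.94 in control replicate 3. The folds were low: the median over the 12 members on these genes was 4.14 in control replicate 2 and 3.68 in control replicate 3. With a fold of at least 4 in every list 2 of 10 such genes held a member, where 16.1% of all genes did, and with the 3105 highest-scoring peaks of each list 0 of 8 did, where 6.92% of all genes did. With control replicate 1 in place of control replicate 2, 3 of 21 genes held a member, against 9.62% of all genes. With the rule run on control replicates 1 and 2, 4 of 25 did, against 4.65%. With identical ends it was 7 of 21, against 7.79%.

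In other groups of protein synthesis and turnover the numbers were small, to be read beside the 17.0% over all genes with a control replicate 3 peak. Of 4 cytosolic ribosomal protein genes with a control replicate 3 peak, RPL11 and RPS10 held a member, with folds of 5.84 and 3.11 in control replicate 2 and 5.55 and 5.34 in control replicate 3. Of 12 proteasome genes 3 did: PSMC1, PSMD9, with 16.5 and 4.86 in control replicates 2 and 3, and PSMD13, with 2.95 and 5.43. Of 16 translation factor genes 3 did (18.8%). EIF5B, which joins the ribosomal subunits, had 2 members. Folds in control replicates 1, 2 and 3 were 18.4, 12.7 and 5.59 at 1 of them and 5.06, 3.28 and 6.05 at the other. GSPT1, the release factor eRF3a, had 3.60 and 5.25 in control replicates 2 and 3. EIF3C had 2 members with folds from 2.18 to 4.71, but the gene has a near-identical copy, so its reads are uncertain. Of 29 ribosome biogenesis genes 3 held a member (10.3%). MDN1, the giant ATPase of ribosome assembly, had 7.20, 9.66 and 5.01 in control replicates 1, 2 and 3, amid 14, 16 and 3 peaks elsewhere in the overexpression lists. DDX52, an RNA helicase, had 6.90 and 3.68 in control replicates 2 and 3, and RRP12 had 4.31 and 3.28.

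Of 28 genes of the unfolded protein and stress response with a control replicate 3 peak, 5 held a member. This 17.9% was near the 17.0% over all genes with a control replicate 3 peak. No overexpression list had a peak on 4 of the 5, against 24.4% of all member genes. Absence from these lists is part of the rule, and the shares were not adjusted for the number of peaks per gene. Nothing is read from this difference. CHAC1, which degrades glutathione and is induced under such stress, had a fold of 10.2 in control replicate 2 and 14.0 in control replicate 3 over its gene start. DNAJB9, a chaperone of the endoplasmic reticulum, had 9.65 and 11.4 over its gene start, and DNAJB11 had 4.24 and 4.95. None of these 3 genes had a peak in control replicate 1 or in any overexpression list, and each had 1 in control replicates 2 and 3.

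Groups of keratinocyte genes held members at shares on both sides of the 17.0% over all genes with a control replicate 3 peak. Of 13 basal and hemidesmosome genes with a control replicate 3 peak, DST and TP63 held members (15.4%). TP63, the transcription factor of basal keratinocytes, had a fold of 4.79 in control replicate 2 and 4.22 in control replicate 3. TP63 had no peak in control replicate 1 or in any overexpression list. Of 20 desmosome and junction genes 2 did: JUP, plakoglobin, with 4.10 and 4.29, and CTNNB1, beta-catenin, with 3.67 and 2.99. Of 13 epidermal differentiation genes 3 did (23.1%): OVOL1, a transcription factor, with 5.10 and 9.40, and the keratins KRT4, with 3.87 and 5.39, and KRT80, with 5.61 and 3.51. JUP, OVOL1, KRT4 and KRT80 each had a peak elsewhere on the gene in at least 1 overexpression list, and CTNNB1 had none. Of 7 activated keratinocyte and inflammation genes 0 held a member.

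In the remaining groups the shares lay near or below the 17.0% over all genes. Of 38 genes of EGFR, Notch and Wnt signalling 5 held a member (13.2%). MAML3, a Notch coactivator, had a fold of 18.8 in control replicate 2 and 11.4 in control replicate 3, and NOTCH1, the receptor itself, had 6.79, 10.96 and 9.30 in control replicates 1, 2 and 3. LRP5, a Wnt coreceptor, had 6.92 and 8.21 in control replicates 2 and 3. Elsewhere on the gene, overexpression replicates 1, 2 and 3 held 6, 6 and 2 peaks for NOTCH1 and 10, 9 and 5 for LRP5. Of 27 cell cycle genes 5 did (18.5%), among them PLK4, the kinase of centriole duplication, with 6.59 and 4.97, MCM10, with 3.39 and 4.57, and MCM5, with 4.16 and 3.66. Among matrix and epithelial-mesenchymal transition genes, 2 of 19 did (10.5%). TWIST1, a transcription factor of that transition, had 37.3 and 11.6, and no peak in control replicate 1 or in any overexpression list. COL4A1, a basement membrane collagen, had 9.46 and 7.65 at the stronger of its 2 members. Its gene carried 11, 6 and 0 peaks elsewhere in overexpression replicates 1, 2 and 3. Of 20 glycolysis and hypoxia genes only BNIP3L held one, with 7.65 and 5.28. Of 22 RNA modification genes 3 did (13.6%). ADAR, which edits adenosine, had 11.6 and 10.04 in control replicates 2 and 3, and YBX1 had 2.96 and 4.62. The m6A reader YTHDC1 had 5.96, 3.19 and 4.76 in control replicates 1, 2 and 3.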

How the data were processed

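The submitters' processing notes name HISAT2 2.0.4, cutadapt 1.9.3 and FastQC, with GRCh38 as the build. The peak names carry MACS, whose version and settings are not given in the sources used here, and peaks were called separately for each replicate. Per the file headers, each deposited peak has a score (scaled from the negative log10 of the p-value), a fold enrichment (a ratio of IP over background) and a false discovery rate. The authors' false discovery rate was read as percent and was 29.28 or higher for every peak, and the deposited peak length is in bases. The lists hold no read counts. The deposited lists of control replicate 2 and overexpression replicate 2 had 3 and 2 emptied lines, which were skipped.

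Starts count from 0 in the lists (adding 1 put 496 starts on a RefSeq gene start, and leaving them 71) and are printed counting from 1. Overlap needed 1 shared base (python 3.11.15, pandas 2.3.3, numpy 2.4.6) and was checked on simulated intervals. Where several peaks overlapped a member, the highest fold is given. Gene spans, strands and start windows are RefSeq's (GRCh38.p14). No genome sequence or strand of peaks was used. The members, lists and alternatives were chosen with earlier results of these data known. Named were the 12 members with the highest lowest fold over 3 control lists, the 8 highest without a control replicate 1 peak, the 6 genes with most members (ties by summed control replicate 3 fold), the 4 longest members, up to 3 genes per gene list and 3 members on each side of the rule's edge. Some of the items so chosen are not reported here. No test was run, because the rule used the lists compared and peaks are not replicates.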

Additional observations from a re-analysis of the deposited data

How the results depend on the processing

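The number of members and of member genes, 1144 and 1015, came to 1188 and 1052 from the rows of control replicate 2, 912 and 824 with 50% of both peaks shared, 1133 and 1004 with no overexpression peak within 100 bases, then 1003 and 893 at fold 4 or higher. They were 505 and 464 with identical ends in control replicate 2, 269 and 248 with no overexpression peak on the gene, 674 and 624 with a score of at least 100, and 164 and 163 with the 3105 highest-scoring peaks of each list. Leaving out 1 list gave 391 to 1816 members on 368 to 1530 genes, and leaving out control replicate 2 and overexpression replicate 3 together, chosen after seeing the data, gave 636 and 603. The share of members with a control replicate 1 peak, 19.4% (Wilson 95% interval 17.2% to 21.8%, counting error only), was 22.3% with no overexpression peak on the gene, 22.3% with a fold of at least 4, 16.9% with a score of at least 100, 51.8% with equal numbers of peaks, and 19.5% to 24.6% without 1 overexpression list. Fewer peaks enter the rule under the thresholds, and fewer lists can remove a position when 1 is left out. Whether this or anything else moved the share was not tested. Under the fold and score thresholds and with equal numbers, recurring peaks had the higher share, at 52.8%, 47.8% and 79.6%, and all control replicate 3 peaks had 28.6%, 23.3% and 50.3%, the last below the members. Overlap on the same strand was not run, because strand of peaks was not used here. No paired analysis was possible because no result comes from a test between groups.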

Other observations

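In the pathway annotation of the deposited lists, the pathway with most member genes was MAPK signalling, with 22 of 111 genes with a control replicate 3 peak (19.8%, against 17.0% over all genes). Pathways with higher shares, chosen after their values were seen and not tested, included oxidative phosphorylation (11 of 26, 42.3%) and TNF signalling (14 of 43, 32.6%). In TNF signalling, FAS, the death receptor, had a fold of 21.9 in control replicate 2 and 6.04 in control replicate 3 and no overexpression peak on the gene. LIF, a cytokine, had 21.0 and 7.04, BIRC3, an inhibitor of apoptosis, 9.48 and 4.34, and JAG1, a Notch ligand, 10.3 and 3.58. The kinase genes MAP2K7, CHUK and MAPK9 had 12.7 and 4.32, 4.19 and 4.59, and 8.55 and 5.52. Of these 7 genes, which are only part of the 14, none had a member with a control replicate 1 peak. FAS, BIRC3 and JAG1 had no overexpression peak anywhere. Over all 14 genes, 4 had none, where 24.4% of all 1015 member genes had none. Positions free of overexpression peaks are what the rule selects, so nothing is read from these counts.

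Of 162 ZNF genes with a control replicate 3 peak, 13 held a member (8.02%, against 17.0% over all genes). By chromosome, members made up from 7.21% of control replicate 3 peaks on chromosome 19 to 15.5% on chromosome 3, against 10.6% in all. A member on UCKL1, a uridine-cytidine kinase gene, covered bases of the MIR1914 hairpin and had folds of 23.1 (control replicate 1), 7.78 (replicate 2) and 18.2 (replicate 3). The highest fold of any member in control replicate 3, 170.5, was at 15712140 to 15712222 on ANKRD28, chromosome 3, where control replicate 2 had 5.31 and control replicate 1 had no peak. The highest in control replicate 2, 141.9, was on CSPG4, where control replicates 1 and 3 had 7.01 and 14.9.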
